A study of Mus musculus with 10 samples.

Results

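The suppressors of cytokine signalling form a family of 8 genes, Socs1 to Socs7 and Cish, and their expression was measured in whole brains after Aldara or control cream was put on the skin. Members were taken by gene symbol from the platform annotation, which gave 12 of the 23410 probesets tested. None of the 12 was shared with another gene, and Socs2, Socs3 and Socs6 had more than 1 probeset. Aldara is a cream with 5% imiquimod, which activates the RNA sensor TLR7. All mice were C57BL/6 females aged 6 to 8 weeks, 5 per group, which received 80 mg of Aldara or of aqueous control cream on shaved dorsal skin every 24 h for 5 applications. Brains were taken 24 h after the last application from perfused mice, and RNA of the whole brain was measured on Affymetrix mouse gene arrays, with 1 array per mouse. Values are on a log2 scale, so a difference of 1 is a doubling, and differences are given as Aldara-treated minus control.

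Many cytokines and interferons signal through receptors that carry JAK kinases, which phosphorylate STAT transcription factors. STATs switch on SOCS genes among their targets, and SOCS proteins bind the receptor or the kinase through an SH2 domain and, through the SOCS box, recruit a ubiquitin ligase, which closes a negative feedback loop. SOCS1 is known as the main brake on interferon signalling and SOCS3 as that on gp130 cytokines such as interleukin 6, also in microglia and astrocytes. CIS, the product of Cish, and SOCS2 limit signals through STAT5, of which growth hormone is the best known for SOCS2. SOCS4 to SOCS7 are less well understood and have been tied to receptor tyrosine kinases and insulin signalling.

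At the only time measured, 24 h after the last application, the SOCS family differed little between Aldara-treated and control mice. No earlier time was measured on these arrays, so whether any member rose and fell before then was not tested. Of the 12 probesets, 4 passed the test at an adjusted p under 0.05 (limma, adjusted over all probesets tested). Those of Socs4 and of Socs6 (1 of its 3) were higher, and those of Socs5 and Socs7 were lower. The share of 33.3% was close to the 33.4% of all probesets that passed (12.4% higher and 21% lower), so the number called was not particular to the family. No difference exceeded 0.18, or 1.13-fold, and the 95% interval of each of the 12 probesets lay within 1.5-fold in either direction, whereas 3.1% of all probesets passed with at least a 1.5-fold change. The median absolute difference was 0.11 over the family, against 0.078 over all probesets. With 1 probeset per gene, that of the highest mean, 3 of the 8 genes passed, 1 higher and 2 lower, or 37.5% against 34.2% of all 19938 genes (11.8% higher and 22.4% lower).

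**Figure D1:**
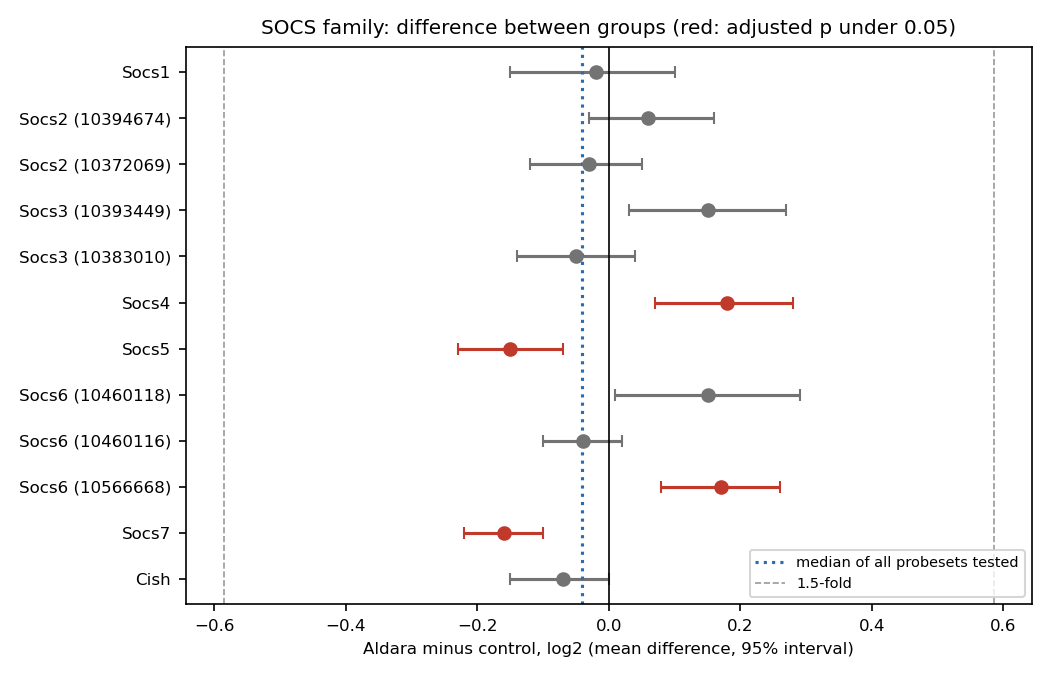
Difference of mean log2 values (Aldara-treated minus control, n = 5 mice per group) for the 12 SOCS family probesets, with 95% intervals from limma. Points in red passed at an adjusted p under 0.05, the dotted line is the median difference of all probesets tested (-0.041), and the dashed lines mark 1.5-fold. All intervals lie between the dashed lines, with Socs4 and 1 probeset of Socs6 to the right of 0 and Socs5 and Socs7 to the left.

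The members that STAT factors are best known to induce were examined first. Parts of the promoters of Socs1, Socs3 and Cish are shown because the known routes to these genes run through 2 DNA motifs. One is the GAS motif bound by STAT dimers (searched as TTCNNNGAA, which reads alike on both strands). The other is a core of the interferon-stimulated response element, ISRE (searched as GAAANNGAAA, or TTTCNNTTTC for the other strand). The windows are RefSeq promoters of GRCm38.p6, each 300 bases long and ending 50 bases past the annotated start. Only the stretch of each window around its matches is printed, with the coordinates of that stretch. The stretches are on the strand of the gene, with matches in capitals. Those from the promoters of Stat2 and Gfap, genes of the same pathway that were higher in Aldara-treated mice, stand beside them. Both were shown as genes that hold a motif and were higher, so they cannot show whether a motif goes with a rise.
Socs1, chr16:10785584-10785639, minus strand, ISRE: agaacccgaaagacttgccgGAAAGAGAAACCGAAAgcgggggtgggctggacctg
Stat2, chr10:128270256-128270305, plus strand, ISRE: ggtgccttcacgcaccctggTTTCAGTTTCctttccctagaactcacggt
Socs3, chr11:117969492-117969540, minus strand, GAS: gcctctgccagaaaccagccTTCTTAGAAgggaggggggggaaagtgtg
Cish, chr9:107296655-107296682, plus strand, GAS: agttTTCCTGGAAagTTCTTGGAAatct
Gfap, chr11:102897184-102897212, minus strand, GAS: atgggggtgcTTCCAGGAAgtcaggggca
The Socs1 window holds 2 overlapping ISRE matches, the first beginning 83 bases before the start. The Socs3 window holds 1 GAS match, 154 bases before the start, and the Cish window holds 2, of which the first begins at base 1 of the transcript. The Socs4 window holds neither motif, and these 4 were the members with a promoter in the table. Of all 32851 promoters in it, 3.44% hold the ISRE core and 8.3% the GAS motif. Among 15614 tested genes with a promoter, 12.1% were higher, against 23.4% of the 607 with the ISRE core and 12.3% of the 1403 with the GAS motif. A match is a run of letters and not a measured binding site.

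Socs1, the brake on interferon signalling, did not pass the test. Its log2 values were 7.53, 7.40, 7.49, 7.71 and 7.46 in control mice and 7.56, 7.48, 7.51, 7.35 and 7.57 in Aldara-treated mice. The groups overlapped over most of their range, and both the highest and the lowest of the 10 values came from replicate 4 of a group. The means were 7.52 ± 0.12 (SD, n = 5) and 7.49 ± 0.088 (SD, n = 5), a difference of -0.02 (standard error 0.059, adjusted p = 0.79). The 95% interval of the fold, 0.9 to 1.08, contains no increase beyond 1.08-fold. It did not pass under any of the 19 alternatives run on it, with differences of -0.07 to 0.03.
Socs3, which restrains signalling through gp130, had 2 probesets. On the one annotated to a RefSeq transcript (10393449), control mice had log2 values of 7.88, 8.03, 7.93, 7.88 and 7.88, and Aldara-treated mice 8.20, 8.01, 8.10, 7.89 and 8.14. Of the Aldara-treated mice, 3 lay above every control mouse, whereas replicates 2 and 4 lay within the control range. The difference of 0.15 (standard error 0.056, 95% interval 0.03 to 0.27) missed the threshold, with p = 0.022 and an adjusted p of 0.062 from limma and an exact two-sided permutation p of 0.063. It passed without control replicate 2 (0.17, adjusted p = 0.038), without Aldara replicate 4 (0.19, adjusted p = 0.009) and after a shift of the Aldara arrays that brought the median difference over all probesets to 0 (0.19, adjusted p = 0.024). The other probeset (10383010), annotated to a single GenBank sequence, had a difference of -0.05 (standard error 0.042, adjusted p = 0.36), so that the 2 probesets differed in sign. It was dimmer, with means of 6.40 in control and 6.34 in Aldara-treated mice, against 7.92 and 8.07 on 10393449. Its difference was also close to the median of all probesets, -0.041.
Cish, a feedback inhibitor downstream of STAT5, had log2 values of 7.15, 7.21, 7.16, 7.14 and 7.12 in control mice and 7.03, 7.16, 7.11, 7.02 and 7.09 in Aldara-treated mice. Of the Aldara-treated mice, 4 lay below every control mouse, and replicate 2 reached the control mean. The difference of -0.07 (standard error 0.033) did not pass the test, with p = 0.045 and an adjusted p of 0.11 from limma and an exact two-sided permutation p of 0.048. It passed without Aldara replicate 2 (-0.09, adjusted p = 0.041) and after each array was centred on the same median (-0.12, adjusted p = 0.015).
Socs2, best known as the inhibitor of growth hormone signalling, did not pass on either probeset. On the brighter one (10394674), the values were 9.78, 9.82, 9.83, 9.60 and 9.67 in control mice and 9.80, 9.80, 9.80, 9.82 and 9.79 in Aldara-treated mice. The Aldara-treated mice all lay within the control range, with an SD of 0.011 against 0.098. The differences were 0.06 (standard error 0.042, adjusted p = 0.28) here and -0.03 (standard error 0.038, adjusted p = 0.52) on the other probeset (10372069), whose fold intervals were 0.98 to 1.11 and 0.921 to 1.03.

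**Figure D2:**
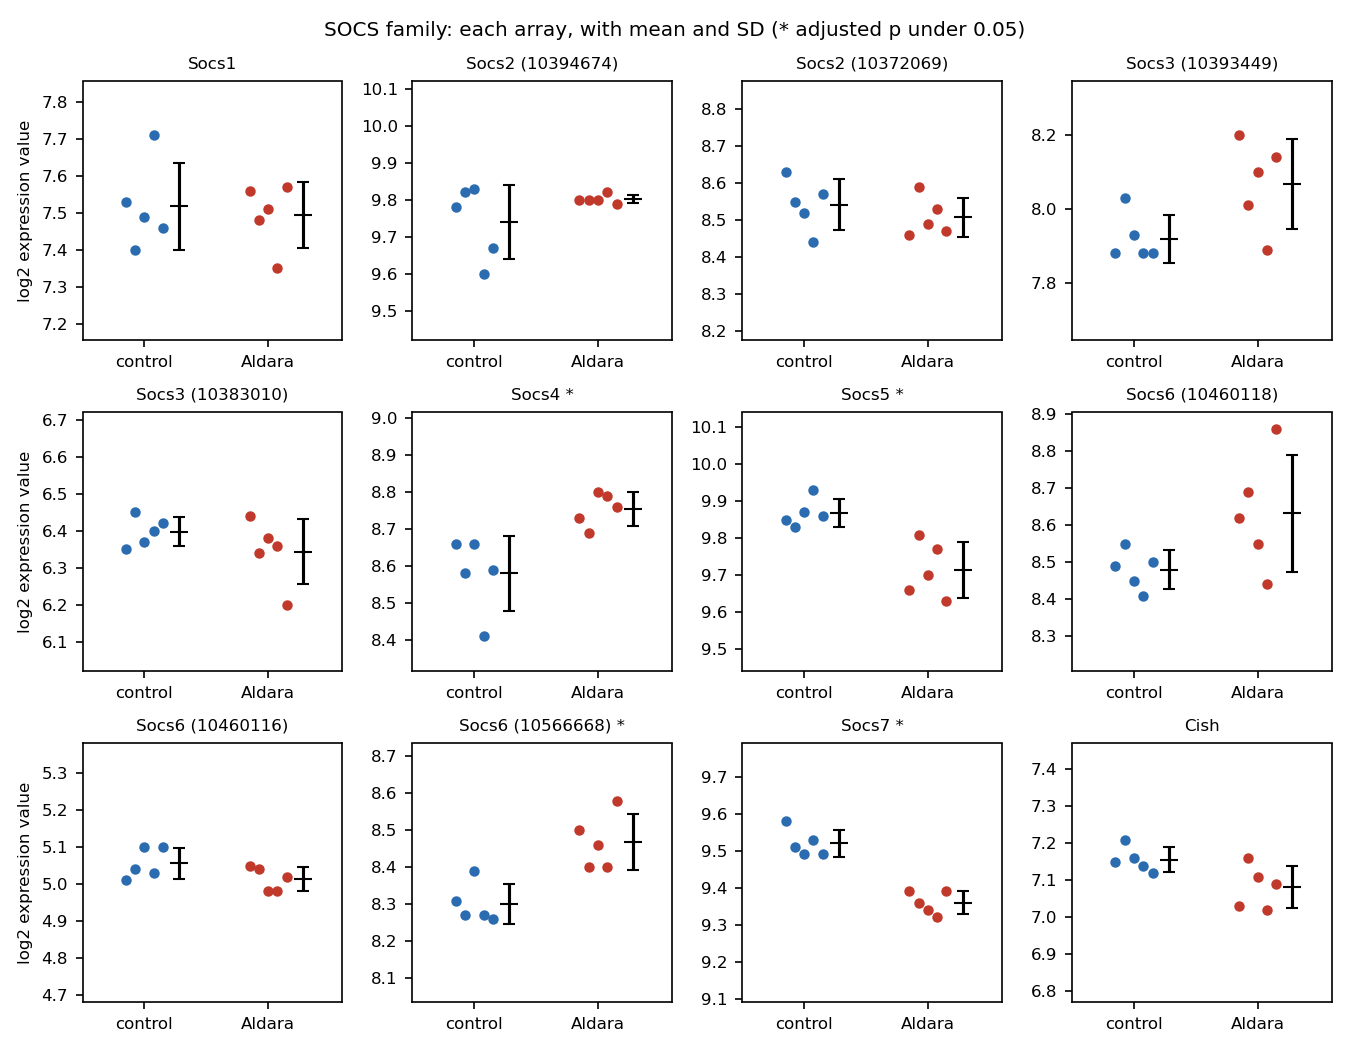
Log2 expression values of the 12 SOCS family probesets in 5 control mice (blue) and 5 Aldara-treated mice (red), with the mean and SD of each group in black. Panels have their own axis of equal span, and an asterisk marks an adjusted p under 0.05. The groups separate fully for Socs4, Socs5, Socs7 and Socs6 probeset 10566668, and overlap in the other panels.

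The 4 calls came from Socs4 to Socs7. Whether these members as a group changed otherwise than the rest of the family was not tested. Socs4, whose product is known to act on the epidermal growth factor receptor, had log2 values of 8.66, 8.58, 8.66, 8.41 and 8.59 in control mice and 8.73, 8.69, 8.80, 8.79 and 8.76 in Aldara-treated mice. The groups did not overlap, although the gap between them was small. The difference was 0.18 (standard error 0.047, adjusted p = 0.012), a 1.13-fold increase with an interval of 1.05 to 1.21, and it was the largest of the family.
Socs6, which has been tied to the stem cell factor receptor KIT and to insulin signalling, had 3 probesets. Probeset 10566668 had values of 8.31, 8.27, 8.39, 8.27 and 8.26 in control mice and 8.50, 8.40, 8.46, 8.40 and 8.58 in Aldara-treated mice, and the groups did not overlap. It was 1.12-fold higher (difference 0.17, standard error 0.041, adjusted p = 0.0072). Probeset 10460118, annotated to the same transcripts, gave a similar difference of 0.15 with a wider error (standard error 0.065, adjusted p = 0.1). Its values were 8.49, 8.55, 8.45, 8.41 and 8.50 in control mice and 8.62, 8.69, 8.55, 8.44 and 8.86 in Aldara-treated mice, with Aldara replicate 5 highest and replicate 4 in the control range. Without Aldara replicate 4 it passed (0.20, adjusted p = 0.027), as it did with the replicate number as a block (0.15, adjusted p = 0.047) and after the shift of the median to 0 (0.19, adjusted p = 0.048). The third, 10460116, annotated to a single GenBank sequence, had a difference of -0.04 (standard error 0.029, adjusted p = 0.33), and it was called lower with the arrays centred (-0.09, adjusted p = 0.027). It was far dimmer than the others, with means of 5.05 in control and 5.01 in Aldara-treated mice.
Socs5, reported to bear on interleukin 4 and epidermal growth factor signalling, was lower. Control mice had values of 9.85, 9.83, 9.87, 9.93 and 9.86, and Aldara-treated mice 9.66, 9.81, 9.70, 9.77 and 9.63. Aldara replicates 1 and 5 were lowest, and replicate 2 came within 0.02 of the lowest control mouse. The difference was -0.15 (standard error 0.037, adjusted p = 0.0077), or 0.9-fold (interval 0.851 to 0.952).
Socs7, whose product binds the adapter NCK and insulin receptor substrates, had the smallest p of the family. Its values were 9.58, 9.51, 9.49, 9.53 and 9.49 in control mice and 9.39, 9.36, 9.34, 9.32 and 9.39 in Aldara-treated mice. All 5 Aldara-treated mice lay clearly below all control mice. The difference was -0.16 (standard error 0.028, adjusted p = 0.00086), or 0.894-fold (interval 0.857 to 0.932).
For each of these 4 probesets the exact two-sided permutation p was 0.0079, the smallest that 5 mice against 5 allow. Groups that do not overlap were found for 33.3% of the family's probesets and for 25.8% of all probesets (10.5% higher and 15.3% lower). All 4 calls were kept under each of the 20 alternatives, among them leaving out each array in turn. Socs1 and Socs2 were called under none of the alternatives run on them, whereas Socs3, Cish and the other Socs6 probesets passed under some scalings or without a single array, and Socs6 probeset 10460118 also with the replicate block. The family had 2 probesets higher and 4 lower after median centring of the arrays, and 4 higher and 2 lower after the median shift. Without Aldara replicate 5, 2 were higher and 2 lower.

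**Figure D3:**
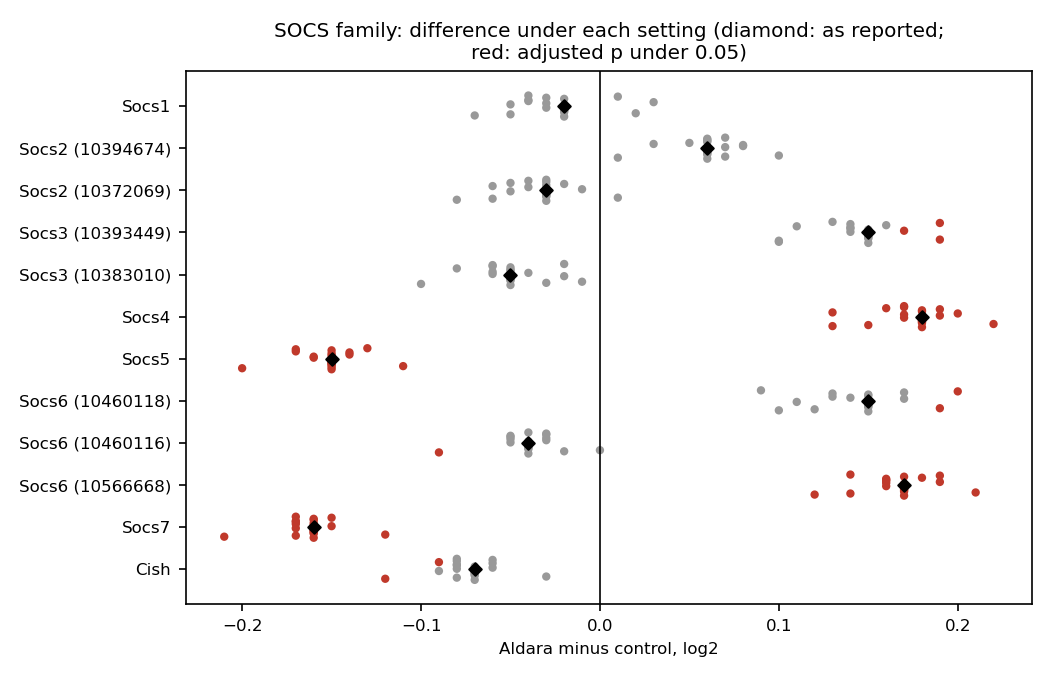
Difference of mean log2 values (Aldara-treated minus control) for each SOCS family probeset under the reported setting (black diamond) and under each alternative (points, red where the adjusted p was under 0.05). Socs4, Socs5, Socs7 and Socs6 probeset 10566668 are red throughout and stay on their side of 0, while the points of Socs1 lie between -0.07 and 0.03 and are all grey.

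Whether members changed unequally was tested for all 28 pairs with 1 probeset per gene, by an exact permutation test on the within-array difference of their log2 values. The adjusted p was under 0.05 for 14 pairs (adjusted over the 28 pairs). Socs4 and Socs7 were furthest apart, with changes of 0.18 and -0.16 that differed by 0.34 (exact p = 0.0079, adjusted p = 0.025), and Socs4 differed from Socs5 by 0.33 (adjusted p = 0.025). Socs2, Socs3 and Socs6 each differed from Socs5, Socs7 and Cish. Socs1 differed from Socs4 only, by -0.20 (exact p = 0.024, adjusted p = 0.048), and its difference from Socs3, of -0.17, missed the threshold (exact p = 0.048, adjusted p = 0.083). Within the pairs Socs5 and Socs7, and Socs3 and Socs6, the changes differed by at most 0.01. The number of pairs called was 9 with quantile normalisation and ranged from 0 to 16 when 1 array was left out, with 0 without control replicate 1, 4 or 5 and 9 without control replicate 3 or Aldara replicate 5.

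**Figure D4:**
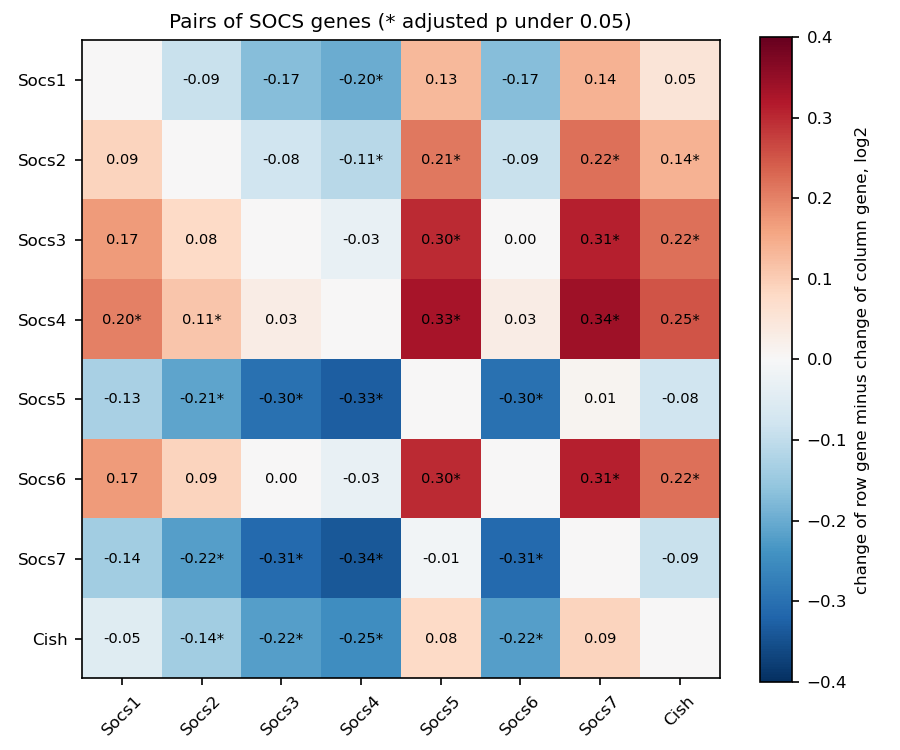
Change of the row gene minus change of the column gene (log2, Aldara-treated minus control, 1 probeset per gene) for the 28 pairs of SOCS family genes, with red for a larger and blue for a smaller change of the row gene. An asterisk marks an exact permutation test with an adjusted p under 0.05, and the largest difference is the 0.34 between Socs4 and Socs7.

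The signalling chain that SOCS proteins restrain was higher at several points in the same brains. Of 9 measured JAK kinases and STAT factors, 4 were higher and none was lower, or 44.4% called against 34.2% of all genes (11.8% higher and 22.4% lower). Their median difference was 0.13, and that of all genes was -0.046. Stat2, which carries type I interferon signals, rose by 0.99 (standard error 0.16), Stat3, the factor of gp130 cytokines, by 0.63 (standard error 0.037), and Stat6, the factor of interleukin 4, by 0.57 (standard error 0.039). Jak2 rose by 0.13 (standard error 0.047, adjusted p = 0.048), a call lost under 11 of 20 alternatives, among them centring of the arrays and leaving out control replicate 1, 3 or 4 or Aldara replicate 1, 2, 3 or 5. Jak1, Tyk2, Stat4, Stat5a and Stat5b did not pass, with differences of -0.05 to 0.18, and Jak3, whose only probeset is shared with another gene, was not analysed here. Aldara replicate 5 stood apart for Stat2, with a log2 value of 10.79, while the remaining Aldara values lay between 9.77 and 10.14 and the control values between 8.98 and 9.16.
Several genes known to be induced through STAT3 had far larger differences than the 0.18 of Socs4. Of 12 targets of STAT3, 9 were higher (75% called, against 34.2% of all genes), with a median of 0.40. They included Serpina3n, a protease inhibitor of reactive astrocytes, at 2.69 (standard error 0.06), Lcn2, which encodes an iron-sequestering protein, at 2.13 (standard error 0.065), Gfap, the intermediate filament of astrocytes, at 1.73 (standard error 0.04), and Vim, another intermediate filament, at 1.48 (standard error 0.054). Of 8 targets of STAT5, Ccnd1, Id1 and Il2ra were higher and Pim2 was lower (50% called), with a median of 0.06. The call for Pim2, at -0.14 (standard error 0.047), was lost under 8 of 20 alternatives, among them leaving out control replicate 1, 2 or 5 or Aldara replicate 1, 4 or 5.

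Other inhibitors of the pathway were considered next. Of 12 measured, 5 were higher and 1, Pias2, was lower (2 lower without Aldara replicate 3 or 5), or 50% called against 34.2% of all genes. With other scalings the numbers were 4 higher and 3 lower (arrays centred), 5 and 3 (quantile normalisation) and 5 and 0 (median difference set to 0). Usp18, an interferon-induced protease that removes ISG15 and blocks the type I interferon receptor, had the largest difference, 3.66 (standard error 0.22, adjusted p = 1.7e-07), with a mean of 7.10 ± 0.15 (SD, n = 5) in control mice and 10.76 ± 0.58 (SD, n = 5) in Aldara-treated mice. Its change exceeded that of every SOCS gene, by 3.48 to 3.82, and the exact permutation p was 0.0079 for each of the 8 comparisons, before and after adjustment over them. Usp18 was chosen for that test after its value was seen. With its groups so far apart, the smallest possible p was fixed in advance, so these p-values add nothing to the differences themselves. Ptpn6, the phosphatase SHP-1 of blood cells, was higher by 0.95 (standard error 0.086), Ptpn1, a phosphatase that acts on JAK2, by 0.36 (standard error 0.055), Sh2b3, an adapter that dampens JAK2, by 0.20 (standard error 0.033), and Cbl, a ubiquitin ligase, by 0.09 (standard error 0.027). The Cbl call was lost under 7 of 20 alternatives, which were centring of the arrays, the replicate block and leaving out control replicate 4 or 5 or Aldara replicate 1, 2 or 4. Of 8 genes for proteins that the SOCS box recruits, which include Cul5, Elob and Eloc, Rbx1 alone passed (12.5% called, against 34.2% of all genes). It was higher by 0.18 (standard error 0.036), its other probeset did not pass, and 2 genes of the list were lower with the arrays centred. Of 24 other genes for proteins with a SOCS box, 4 were higher and 4 lower (2 lower without Aldara replicate 4), a share of 33.3% that is near the 34.2% of all genes. The numbers became 3 and 13 with the arrays centred, 3 and 6 with quantile normalisation and 5 and 1 after the median shift. Those of the smallest p were Asb2, an ankyrin repeat protein of blood cells, at 0.54 (standard error 0.057), Spsb1 at 0.24 (standard error 0.045), Asb1 at -0.18 (standard error 0.029) and Wsb1 at 0.17 (standard error 0.03).

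**Figure D5:**
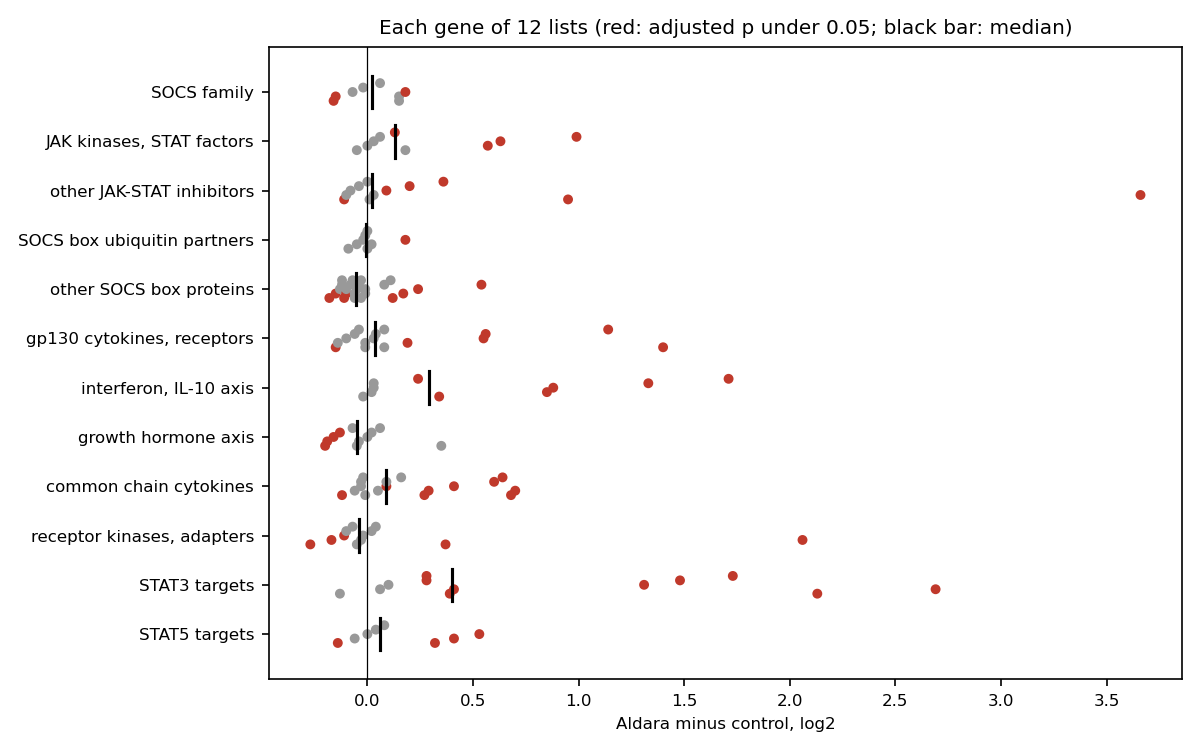
Difference of log2 expression values (Aldara-treated minus control) for each measured gene of 12 lists, with 1 probeset per gene. Genes in red passed at an adjusted p under 0.05 and black bars are list medians, which are 0.02 for the SOCS family and 0.40 for targets of STAT3, and the far point among the other inhibitors is Usp18.

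Upstream of the SOCS proteins, several receptor genes were higher. Of 16 measured genes of gp130 cytokines and related receptors, 5 were higher and 1, Cntfr, was lower, or 37.5% called, near the 34.2% of all genes (none lower when replicate 1 or 5 of either group was left out, 2 lower without Aldara replicate 3, 5 and 4 with the arrays centred, 7 and none after the median shift). Osmr, the oncostatin M receptor, was higher by 1.40 (standard error 0.085), Csf3r by 1.14 (standard error 0.078), Il6ra by 0.56 (standard error 0.039) and Ebi3, a cytokine subunit, by 0.55 (standard error 0.057). Il6 itself, with a difference of -0.01, did not pass. Its mean log2 value was 5.03 in control and 5.02 in Aldara-treated mice, far below the array medians of 8.10 to 8.19. Whether Il6 was detected at all is unknown, so its value cannot show that it was unchanged. Of 10 genes of the interferon and interleukin 10 axis, 6 were higher and none was lower (60% called). Il10ra was higher by 1.71 (standard error 0.065), Il10rb by 1.33 (standard error 0.038), Ifnar2, a chain of the type I interferon receptor, by 0.88 (standard error 0.036), and Ifngr1, of the interferon gamma receptor, by 0.85 (standard error 0.045). Of 17 genes of cytokines that use common receptor chains, 8 were higher and 1, Csf2, was lower, or 52.9% called (7 and 2 with the arrays centred, 9 and none after the median shift, where the Csf2 call was lost). Of the 8, Il7 lost its call under 12 of 19 alternatives. Examples were Csf2rb at 0.70 (standard error 0.073), Il4ra at 0.68 (standard error 0.047), Il21r at 0.64 (standard error 0.057) and Il2rb at 0.60 (standard error 0.062).
The growth hormone and insulin-like axis, on which SOCS2, SOCS6 and SOCS7 bear, was measured by 11 genes. None was higher and 4 were lower, or 36.4% called, near the 34.2% of all genes, of which 22.4% were lower (6 lower with the arrays centred, 3 lower and 1 higher after the median shift). Irs4 had a difference of -0.20 (standard error 0.044), Igf1 one of -0.19 (standard error 0.037), Irs1 one of -0.16 (standard error 0.035) and Igf1r one of -0.13 (standard error 0.034). The 2 probesets of Irs1 disagreed, since the dimmer one did not pass. Of 12 receptor tyrosine kinases and adapters tied to SOCS4 to SOCS7, 41.7% were called. Vav1, a signalling protein of blood cells, was higher by 2.06 (standard error 0.085) and Flt3l by 0.37 (standard error 0.035). Erbb4, at -0.27 (standard error 0.028), Kit, at -0.17 (standard error 0.03), and Kitl, at -0.11, were lower (6 lower with the arrays centred, 4 under quantile normalisation, 2 after the median shift).

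Markers of cell types differed between the groups as well. The counts below stand against 34.2% of all genes called, 11.8% higher and 22.4% lower. In a whole brain, fewer cells of a type and less RNA per cell cannot be told apart. Markers of neurons were present and all 8 were lower, by 0.09 to 0.21, and their mean log2 value over the list was 11.91 to 11.96 in controls and 11.77 to 11.82 with Aldara. With the median difference set to 0, 4 of the 8 were lower. The differences of Socs5 (-0.15) and Socs7 (-0.16) were of this size. So was the median absolute difference of all 7827 probesets called, 0.18, so the size is not particular to neuron markers. Markers of monocytes and infiltrating macrophages were higher for 9 of 11 and lower for 1, Cd163, with list means of 6.52 to 6.64 in controls and 8.42 to 8.70 with Aldara. For T and NK cells 9 of 12 were higher and 1, Cd4, was lower (6.45 to 6.60 against 6.99 to 7.26). For microglia the numbers were 6 higher and 2 lower (Siglech and Gpr34) of 9, and for endothelium 4 higher of 6. For astrocytes, Gfap, Aqp4 and Aldh1l1 were higher and Slc1a2, Slc1a3 and Gja1 lower, of 7. For oligodendrocytes Mag was higher and Mbp lower, of 6 (33.3%, near the share of all genes). The Mag call was lost with the arrays centred. For B cells Cd79b and Cd22 were higher, of 5 (40% called, also near the share of all genes). Of 5 red cell and choroid plexus markers, Ttr, Kl and Folr1 were lower, and the Folr1 call was lost under 8 of 20 alternatives, among them the median shift and leaving out control replicate 1, 3 or 4 or Aldara replicate 3, 4 or 5. None of 9 neutrophil markers passed in limma at an adjusted p under 0.05 and 1, Ngp, had an unadjusted p under 0.05, although 3 were higher after the median shift and 2 with quantile normalisation, and 1 without Aldara replicate 5. The part of any of these markers in the values of SOCS genes was not tested.

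The genes with the most similar profiles were found for the 3 members with the largest called differences, by the root mean square difference between the 10 arrays' log2 differences from the control mean, over 19937 other genes. Those closest to Socs4 were Ncoa3 (0.042), Rps29 (0.045) and Cavin3 (0.046). Those closest to Socs6 probeset 10566668 were Anxa7 (0.028), Nme2 (0.028) and Tut7 (0.03), and those closest to Socs7 were Ttc3 (0.02), Adgrl3 (0.02) and Aqp6 (0.021).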

How the data were processed

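Per the labels and the methods, the deposited log2 values came from RMA as run by the authors in GeneSpring GX (background subtraction, quantile normalisation across arrays and 1 summary per probeset). The GeneSpring version was not given in the sources used here, and scanner values were not used, so whether a probeset stood above background is unknown. Symbols came from the platform annotation of the array. Of 28856 probesets, 23410 had at least 1 symbol and were tested.
The comparison of groups used lmFit and eBayes of limma 3.58.1 (R 4.3.3) without a block, and Benjamini-Hochberg adjustment over all probesets tested and a threshold of 0.05. Lists took, per gene, the probeset with 1 symbol of the highest mean over the 10 arrays. Single values and pairs were tested with exact permutations over the 252 relabelings. Members, lists, tests and alternatives were chosen with earlier results of these data known. Genes named are the SOCS, JAK and STAT genes, up to 4 called members of each other list with the smallest p, all where 5 or fewer passed, and the 3 most alike profiles. Of the lists, 1 is not reported here. Il6, Cul5, Elob, Eloc, Csf2, Il7, Pias2, Cbl, Cntfr and some cell markers were added after their values were seen.
On simulated arrays with 200 of 23410 probesets changed, the test recovered 36% of changes of 1.1-fold, 78% of 1.2-fold and 100% of 1.5-fold. The simulated arrays gave 167 calls and the real ones 7827, so the unadjusted p needed for a call was smaller in the simulation. These shares therefore do not give the recovery in the real data. Precision is limited by the number of arrays. Alternatives were 3 other scalings, 3 other sets of probesets, the methods' t-test, a replicate block, weights per array, eBayes with trend and robust prior, unlogged means, the mean of a gene's probesets and leaving out each array. Array medians of the tested probesets were 8.10 to 8.14 in control and 8.16 to 8.19 in Aldara-treated mice, and the median difference was -0.041. Labels call the samples biological replicates, and no scan date was given in the sources used here.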

Additional observations from a re-analysis of the deposited data

How the results depend on the processing

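After median centring of the arrays, 9606 probesets were lower in place of 4926, 4 SOCS probesets were lower in place of 2, and 37 of the 137 measured pathway genes were lower in place of 15. After the Aldara arrays were shifted to a median difference of 0, 2760 probesets and 6 pathway genes were lower and 4 SOCS probesets were higher in place of 2. With only the brighter probesets, 29 pathway genes were higher in place of 46, since fewer were tested. Quantile normalisation gave 9 called pairs of SOCS genes in place of 14. Leaving out 1 array gave 0 to 16 pairs, 2 to 4 higher SOCS probesets (4 without Aldara replicate 4) and 2 to 3 lower ones. It gave 2653 to 2926 higher and 4119 to 4772 lower probesets and 43 to 45 higher and 12 to 17 lower pathway genes. Of 235 tested differences of SOCS probesets under the alternatives, none lost its call, no called difference changed sign, and 9 passed newly. Deviations of same-numbered arrays correlated at -0.11 to 0.249, and 2 of 5 control arrays correlated best with their own number, so the numbers were not taken to pair the mice. With the replicate number as a block, 2701 probesets were higher and 4421 lower, and 3 SOCS probesets were higher and 2 lower. The methods' t-test gave 2750 higher and 4484 lower probesets after adjustment, with 2 and 2 of the SOCS family. Centring lowered every difference by the same amount, because the array medians were higher in Aldara-treated mice. The median shift raised every difference by the same amount, because the median difference was -0.041. The opposite moves of the counts under these 2 settings follow from that. The cause of the remaining shifts was not tested. Of the 12 SOCS probesets, 5 lay below the median level of all probesets. Changes of 1.1-fold were mostly missed on simulated arrays, where a call needed a smaller unadjusted p than in the real data.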
